A study of Mus musculus with 2 samples.

Results

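Elastic fibre and microfibril genes were examined in cardiac myofibroblasts after knockdown of *Vgll3*, as 10 genes picked by their symbols out of 24532 genes in the count table. They are elastin (*Eln*), the fibrillins *Fbn1* and *Fbn2*, the fibulins *Fbln1*, *Fbln2*, *Fbln5*, *Efemp1* (fibulin-3) and *Efemp2* (fibulin-4), and the microfibril-associated genes *Mfap4* and *Mfap5*. Myofibroblasts are the matrix-producing cells of the injured heart, and these came from mice labelled C57BL/6, 3 days after myocardial infarction (MI). The methods of the study name C57BL/6J mice for work on isolated myofibroblasts. Per the methods of the study, they were the adherent, CD45-negative cells of the digested infarct. The siCtrl cells received a control siRNA and the si*Vgll3* cells a single siRNA against *Vgll3*, each at 12.5 nM, and RNA was taken 72 h later. Each condition has 1 library, so no difference has a replicate check, no test was made, and the number of animals or cultures behind a library was not stated. In bulk RNA, fewer cells of a type and less RNA per cell cannot be told apart.

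Elastic fibres give arteries, lungs, skin and the heart their recoil. Fibrillins assemble into microfibrils, a scaffold onto which tropoelastin, the soluble product of *Eln*, is deposited and then cross-linked by lysyl oxidases. Fibulin-4 and fibulin-5 bind tropoelastin and lysyl oxidases and are needed for this deposition, while MFAP4 and MFAP5 associate with the microfibrils. Microfibrils also hold latent TGF-β in the matrix through its binding proteins.

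Expression was taken from the deposited TPM, which is scaled for gene length and library size and so allows levels of different genes to be compared. The difference between the libraries is given as M, log2 of si*Vgll3* TPM over siCtrl TPM, and the level as A, log2 of the mean TPM of both. A gene was called lower at M < −0.5 and A > 0, and called higher at M > 0.5 and A > 0. The interval after each M is its 95% Clopper-Pearson counting interval. It covers counting error only and compares 2 libraries, not conditions. The siCtrl library held 140815237 reads on genes and the si*Vgll3* library 125789276. *Vgll3*, which the siRNA targets, had 202 and 84.0 TPM, the latter being 41.6% of its siCtrl level. The 11754 genes with A > 0 had a median M of −0.05. All 10 fibroblast and myofibroblast markers were expressed, with a median M of 0.08, and they went both ways. *Vim* was at 5343 and 6541 TPM and *Acta2*, the αSMA gene, at 3296 and 3866 TPM. Of the 10 markers 4 were called lower and 2 higher (all genes: 11.4% and 5.73%). The lower ones were *Postn* (696 and 299 TPM, M −1.22), *Col1a1* (M −0.90), *Pdgfrb* (M −0.74) and *Tcf21* (M −0.58). The higher ones were *Thy1* (M 0.72) and *Tagln* (M 0.52).

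All 10 genes were expressed, with A above 2. *Eln* and *Mfap4* were far lower in si*Vgll3*, at 12.8% and 15.0% of their siCtrl level, and *Fbn2* was at 34.3%. *Fbln1* and *Fbn1* were lower by less, *Fbln5* and *Efemp2* differed little, *Fbln2* and *Mfap5* were slightly higher, and *Efemp1* was higher. In all, 5 of the 10 genes were called lower, against 11.4% of all genes tested, and 1 was called higher, against 5.73%. The median M of the 10 genes was −0.39. The members' M ran from −2.96 to 0.74, so the genes of the fibre did not move as a block.

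**Figure D1:**
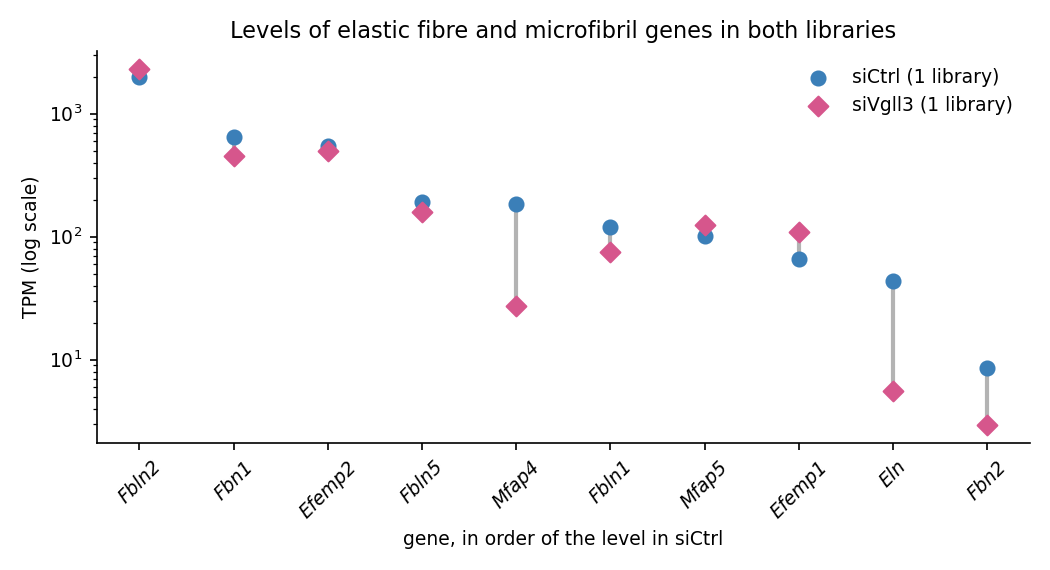
TPM (log axis) of each of the 10 genes in the siCtrl library (blue circles) and the siVgll3 library (pink diamonds), in order of the siCtrl level, with a grey line joining the values of a gene. The long lines belong to *Mfap4* (184 to 27.5 TPM), *Eln* (43.3 to 5.55 TPM) and *Fbn2* (8.62 to 2.96 TPM).

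*Eln* encodes tropoelastin, the building block of the elastic core. It lies on chromosome 5 of mm10 from 134702593 to 134747323 on the minus strand (NCBI gene 13717). Reads on *Eln* numbered 10652 in the siCtrl library and 1264 in the si*Vgll3* library, which corresponds to 43.3 and 5.55 TPM. Its M was −2.96 (−3.05 to −2.88), a level 7.80-fold lower in si*Vgll3*. Of the 11754 genes with A > 0, only 13 had a lower M. By level, *Eln* stood at rank 3546 of all genes with TPM in siCtrl and at rank 9216 in si*Vgll3*.

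*Mfap4* encodes an extracellular glycoprotein with a fibrinogen-like domain that binds elastin, fibrillin and collagen. It lies on chromosome 11 from 61485431 to 61488900 on the plus strand (NCBI gene 76293). With 17817 reads in siCtrl against 2466 in si*Vgll3*, its TPM was 184 and 27.5. The M of *Mfap4* was −2.74 (−2.80 to −2.68), a level 6.69-fold lower, and 19 of the tested genes had a lower M. The annotated interval of *Mfap4* overlaps *Mapk7* on the other strand. *Mapk7* had an M of −0.44 (−0.50 to −0.37), with 4734 and 3281 reads. *Eln*, *Fbn1* and *Fbn2* each overlap a predicted gene on the other strand that was not analysed here. The kit marks strand, but whether the counting used it was not stated.

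*Mfap5*, also known as MAGP-2, encodes a small glycoprotein of microfibrils that binds fibrillins. It differed from *Mfap4* in direction. The siCtrl library held 9094 reads of *Mfap5* and the si*Vgll3* library 10432, or 101 and 125 TPM, and its M was 0.31 (0.27 to 0.35). In siCtrl there was 0.547 *Mfap5* mRNA per *Mfap4* mRNA by TPM, and in si*Vgll3* there were 4.54. The M of *Mfap5* exceeded that of *Mfap4* by 3.05 (counting interval 2.98 to 3.12).

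The fibrillins form the backbone of the microfibril, and *Fbn1* was by far the more abundant of the pair. *Fbn1* (NCBI gene 14118) lies on chromosome 2 from 125300594 to 125507993 and had 411165 and 267274 reads. With 651 and 457 TPM, it had an M of −0.51 (−0.52 to −0.50), just past the threshold of −0.5. Under each other scaling tried *Fbn1* lay above that threshold, and from CPM its M was −0.46. *Fbn2* (NCBI gene 14119), the fibrillin best known from developing tissue, lies on chromosome 18 from 58008623 to 58210487. It had 5769 and 1832 reads, or 8.62 and 2.96 TPM, an M of −1.54 (−1.62 to −1.47). By TPM, *Fbn1* exceeded *Fbn2* 75.5-fold in siCtrl and 154-fold in si*Vgll3*. Their M differed by 1.03 (0.96 to 1.11), which is more than counting error.

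Fibulins are calcium-binding glycoproteins built of repeated EGF-like domains, and the 5 measured here went different ways. *Fbln5* (fibulin-5) and *Efemp2* (fibulin-4), which bring tropoelastin to the microfibril, differed least among the members with M below 0. *Fbln5* had 190 and 158 TPM, an M of −0.27 (−0.29 to −0.25). *Efemp2* had 546 and 497 TPM, an M of −0.14 (−0.15 to −0.12). *Efemp2* overlaps *Mus81* on the other strand, which had far fewer reads (1588 and 1374) and an M of −0.10. For every *Eln* mRNA by TPM there were 12.6 of *Efemp2* in siCtrl and 89.5 in si*Vgll3*, and likewise 4.39 and 28.4 of *Fbln5*.

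*Fbln1* (fibulin-1), a fibulin of the basement membrane and of elastic fibres, was called lower. Its levels were 120 and 75.5 TPM, for an M of −0.67 (−0.70 to −0.64). *Fbln2* (fibulin-2) was the most abundant of all 10 genes in each library. It had 559610 and 602771 reads, or 2001 and 2327 TPM, an M of 0.22 (0.21 to 0.22). *Efemp1* (fibulin-3) was the member called higher. The siCtrl library had 8559 of its reads and the si*Vgll3* library 13259, or 65.8 and 110 TPM, for an M of 0.74 (0.70 to 0.78). In the order of M, 364 of the tested genes lay above *Efemp1*.

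**Figure D2:**
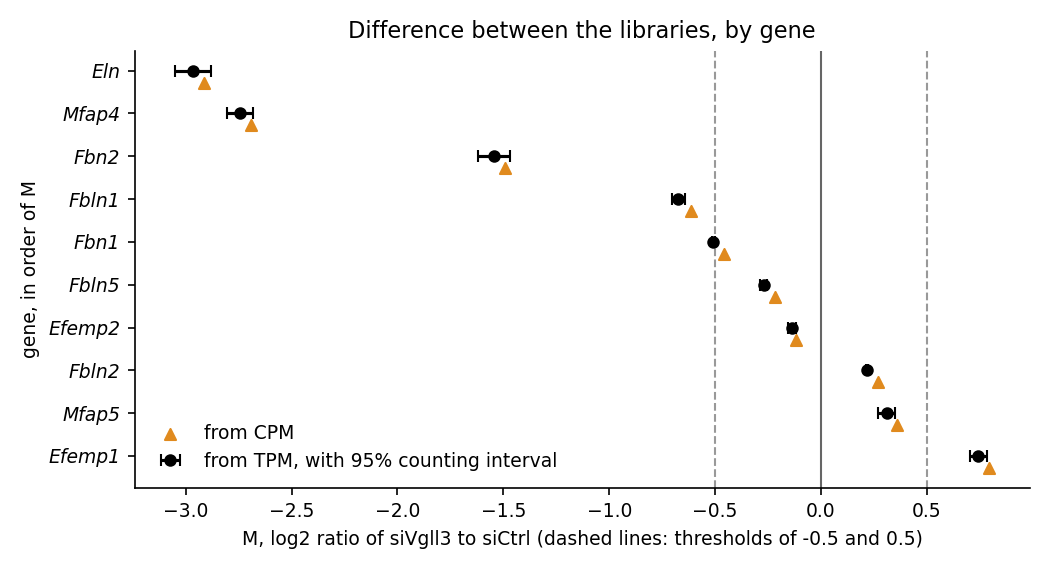
M of each gene (log2 ratio of siVgll3 to siCtrl) from TPM, with its 95% counting interval (black), and from CPM (orange triangles). *Eln*, *Mfap4* and *Fbn2* lie below −1, *Fbn1* lies at the dashed threshold of −0.5 and crosses it with CPM, and *Efemp1* alone lies above 0.5.

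The summed level of the genes hardly differed, as the higher level of the abundant *Fbln2* offset most of the lower sum of the others. Over all 10 genes the sums were 3911 TPM for siCtrl and 3785 TPM for si*Vgll3*, a log2 ratio of −0.05. Without *Fbln2* they were 1910 and 1458 TPM, a log2 ratio of −0.39. *Fbln2* made up 51.2% of the sum in siCtrl and 61.5% in si*Vgll3*. *Eln* and *Mfap4* together went from 227 to 33.1 TPM. The order of levels also differed between the libraries. *Mfap4* was 5th of the 10 in siCtrl and 8th in si*Vgll3*, *Efemp1* was 8th and 6th, and *Fbln2*, *Fbln5*, *Eln* and *Fbn2* held the same place. In siCtrl, *Fbln5* and *Mfap4* stood next to each other at 190 and 184 TPM, and no replicate error tells whether such neighbours differ.

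**Figure D3:**
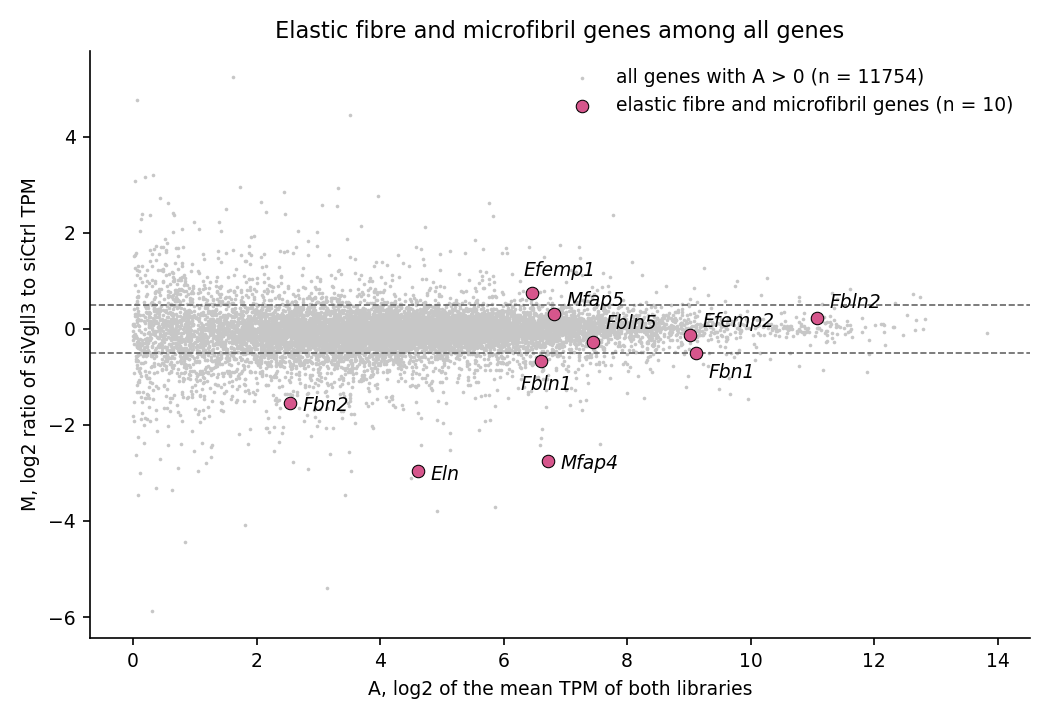
M against A for all 11754 genes with A > 0 (grey) and the 10 elastic fibre and microfibril genes (pink), with dashed lines at M of −0.5 and 0.5. *Eln* and *Mfap4* lie near the lower edge of all genes, with only 13 and 19 genes below them, while *Fbln5*, *Efemp2*, *Fbln2* and *Mfap5* lie within the main band.

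Sequence matches to miR-29 were looked for, since this microRNA family is known to bind mRNAs of matrix genes and the study also examined it. The libraries did not measure miR-29 itself. The mature sequences below are from RefSeq (GRCm38.p6) and carry the seed, bases 2 to 8, in capitals. The seed is the same in all 3 and pairs with the 7-mer TGGTGCT in an mRNA.
miR-29a-3p: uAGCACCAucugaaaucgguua
miR-29b-3p: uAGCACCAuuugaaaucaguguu
miR-29c-3p: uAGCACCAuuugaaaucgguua

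The 3′ UTRs of 4 of the 10 genes held this 7-mer, against 14.3% of the 10952 tested genes with a 3′ UTR of at least 7 nt. *Eln* had 3 matches in a 3′ UTR of 1188 nt, and 0.438% of those genes had at least as many. *Fbn1* and *Mfap5* had 2 matches each and *Fbn2* had 1. The sites of the 3 genes with 2 or more matches are shown, since their M ran from the lowest of the members to above 0, with the 7-mer in capitals. They were read 5′ to 3′ from GENCODE vM21 transcripts (GRCm38, the assembly also called mm10), on the minus strand of the genome for *Eln* and *Fbn1* and on the plus strand for *Mfap5*.
*Eln* site 1, chr5:134703736-134703761: tcgcgacctcatcaacgtTGGTGCTa
*Eln* site 2, chr5:134703489-134703514: tccatctccaagggaaatTGGTGCTa
*Eln* site 3, chr5:134703476-134703501: gaaattggtgctacatgtTGGTGCTt
*Fbn1* site 1, chr2:125301173-125301198: aggtttctgttgtctgttTGGTGCTa
*Fbn1* site 2, chr2:125300923-125300948: taatgtgagggtttgtaaTGGTGCTt
*Mfap5* site 1, chr6:122528557-122528582: ccctactctaattttcacTGGTGCTg
*Mfap5* site 2, chr6:122528780-122528805: gttaatattttttttaaaTGGTGCTa

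Sites 2 and 3 of *Eln* lie next to each other, and the window of site 3 includes the match of site 2. The coding sequence of *Eln* held 11 further matches, and 5 of 11089 tested coding sequences, *Eln* included, held at least as many. The coding sequence of *Fbn1* held 2 and that of *Efemp1* held 1, while 20.8% of the tested coding sequences held any. Whether the number of matches goes with M was not tested. *Eln* had the most matches and the lowest M of the members. *Mfap4* had 0 matches in the 3′ UTR of 74 nt of the transcript used, and an M of −2.74. *Mfap5* had 2 matches and an M of 0.31. Only 1 transcript per gene was searched, so matches in longer 3′ UTRs of other transcripts would be missed. The fibulins had 0 matches in 3′ UTRs of 131 nt (*Efemp2*) to 1356 nt (*Fbln1*), with M between −0.67 and 0.74. The median 3′ UTR of the tested genes was 995 nt. A match is a description of the letters and does not show that a microRNA binds there.

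**Figure D4:**
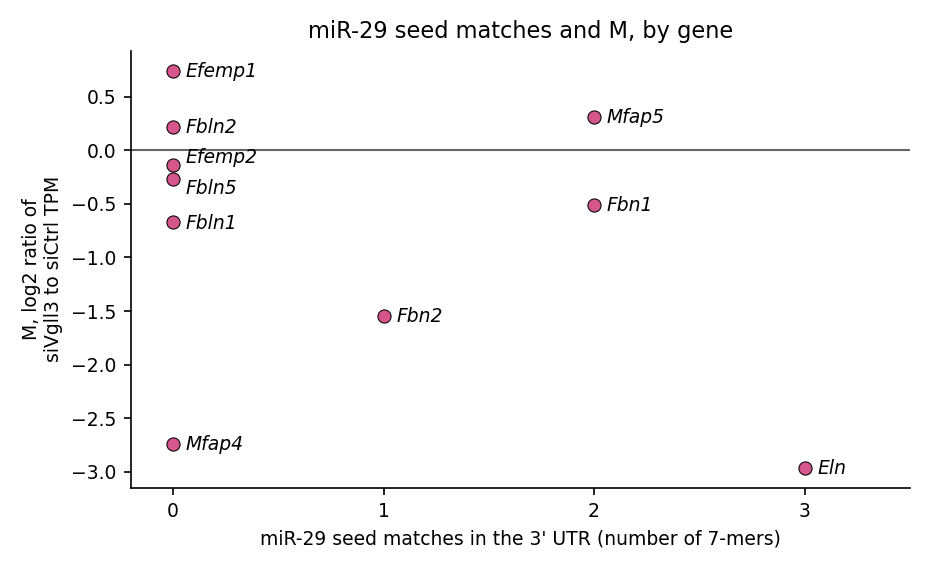
Number of miR-29 seed matches in the 3′ UTR (horizontal axis) against M (vertical axis, log2 ratio of siVgll3 to siCtrl TPM) for the 10 genes. Genes with 0 matches span M from −2.74 (*Mfap4*) to 0.74 (*Efemp1*), and the genes with 2 matches, *Fbn1* and *Mfap5*, lie at −0.51 and 0.31. *Fbn2*, with 1 match, lies at −1.54 and *Eln*, with 3, at −2.96.

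VGLL3 is a cofactor of TEAD transcription factors, so the core hexamer GGAATG was searched on both strands of promoter windows. The windows ran from 250 bases before to 50 bases after the start of each gene (RefSeq, GRCm38.p6). In the study, knockdown of *Tead1* in cardiac myofibroblasts left fibrotic gene expression unaffected. The hexamer was found in 0 of the 10 windows matched to 6 of the genes, and in 14.7% of all 32851 windows. The remaining members had no window and were not searched. This says only that these letters are not in those windows. In length and base composition the genes were unlike each other. The transcripts used here ran from 939 nt for *Mfap4* to 11971 nt for *Fbn1*, and GC content from 44.9% for *Efemp1* to 58.8% for *Eln*. *Mfap4* (58.4% GC) and *Efemp2* (58.8% GC) had like GC content and M of −2.74 and −0.14.

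Other genes that build, cross-link or degrade elastic fibres were taken from wider lists. Of 20 microfibril-associated genes in the count table, 15 had A > 0. Of these, 8 were called lower and 1 higher (all genes: 11.4% and 5.73%), with a median M of −0.51. *Bgn* and *Dcn*, small leucine-rich proteoglycans that bind fibrillin microfibrils and tropoelastin, were at M of −0.34 and −0.26. *Emilin1*, a glycoprotein at the interface of elastin and microfibrils, had 384 and 194 TPM, an M of −0.99 (−1.01 to −0.97). *Adamtsl2*, which binds fibrillin-1, was lowest with 699 and 111 reads, an M of −2.55 (−2.85 to −2.26). *Adamts6* was highest, at 0.66. *Mfap2*, or MAGP-1, is the closest relative of *Mfap5* and was named after its value was seen. At 15.4 and 5.82 TPM, its M was −1.41 (−1.58 to −1.24), opposite in sign to that of *Mfap5*. Among the latent TGF-β binding proteins, also named after their values were seen, *Ltbp2*, *Ltbp3* and *Ltbp4* had M of −0.51, −0.59 and −0.21, and *Ltbp1* had an M of 0.31.

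Lysyl oxidases, which cross-link elastin and collagen, were closer to the siCtrl level. Of 5 genes, 2 were called lower (all genes: 11.4%) and 0 higher, with a median M of −0.14. With CPM, TMM, DESeq2 size factors or centred M, 1 gene was called lower, as *Loxl2* no longer passed. *Lox*, the most abundant, had an M of −0.14. *Loxl1*, the family member most tied to elastic fibres, was at 0.02, *Loxl2* at −0.52, *Loxl3* at −0.68 and *Loxl4* at 0.15.

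Elastin-degrading proteases and their inhibitors gave 8 genes with A > 0. Of these, 3 were called lower and 1 higher (all genes: 11.4% and 5.73%), with a median M of −0.19. *Mmp2*, which cleaves elastin and denatured collagen, had the lowest M of them, −0.71. The protease inhibitors went both ways, with *Timp1* at 0.67, *Timp3* at 0.10 and *Cst3* at −0.63. In this list 5 genes had 0 reads in each library, the macrophage and neutrophil elastases *Mmp12* and *Elane* among them. Up to 3 reads are compatible with a count of 0. *Prtn3* (67 and 31 reads) and *Mmp9* (16 and 14 reads), of the same list, had A below 0. These and *Mmp12* and *Elane* were named after their values were seen.

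Of 9 receptor genes with A > 0, 2 were called lower and 2 higher (all genes: 11.4% and 5.73%), with a median M of −0.13. The lower call of *Itga8*, named after its value was seen, rested on a low count of 542 and 350 reads, with an M of −0.52 (−0.72 to −0.33), and was lost under most alternatives. The integrin chains *Itgb1*, *Itgb5* and *Itgav* were at −0.13, −0.43 and −0.01. *Itgb3* was lowest at −0.74 and *Lgals3*, which encodes galectin-3, highest at 1.71. Fibrillar collagens, given for comparison, had 6 of 8 genes called lower and 0 higher (all genes: 11.4% and 5.73%). Their median M was −0.81, and M lay between −0.97 and −0.44. The most abundant of them, *Col1a1*, *Col1a2* and *Col3a1*, were at −0.90, −0.53 and −0.86, with *Col11a1* lowest and *Col5a2* highest. The M of the 10 elastic fibre and microfibril genes spread over a wider range on both sides of that of the fibrillar collagens. With 1 library per condition this was not tested.

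**Figure D5:**
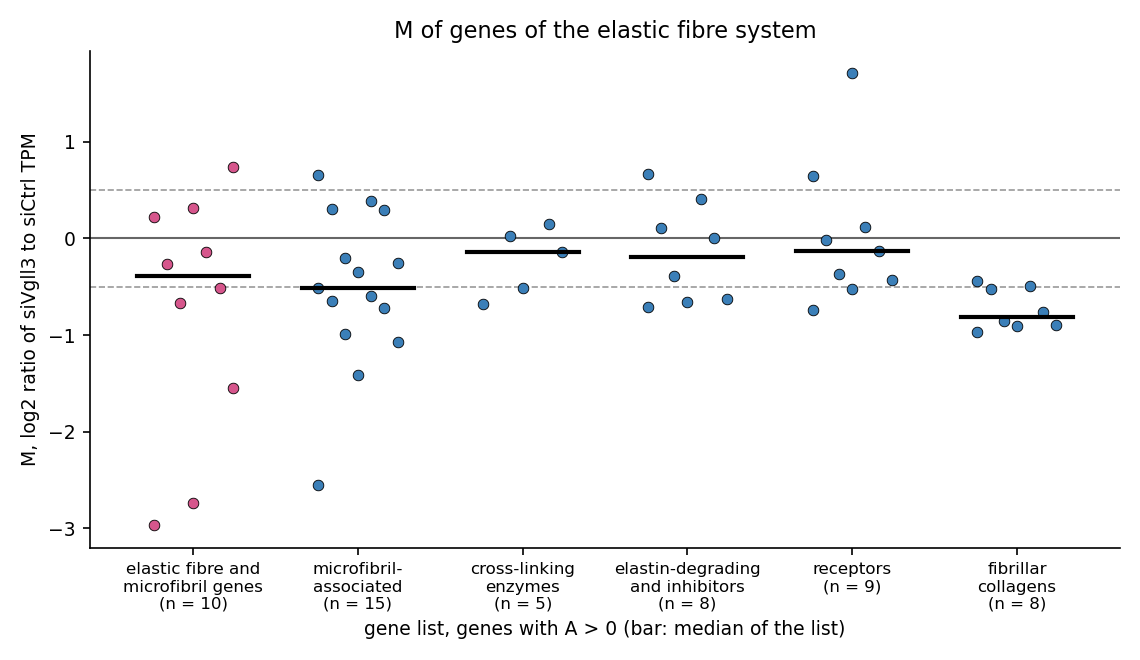
M (log2 ratio of siVgll3 to siCtrl TPM) of each gene with A > 0 in the elastic fibre and microfibril genes (pink) and in 5 wider lists (blue), with a black bar at each median and dashed lines at −0.5 and 0.5. Fibrillar collagens lie close together around −0.81, while the elastic fibre and microfibril genes run from −2.96 to 0.74.

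Smooth muscle cells are the main source of elastin in arteries. All 3 markers of smooth muscle and pericytes with A > 0 had M below 0, with a median of −0.82. Summed over 7 markers of smooth muscle and pericytes, the levels were 119 TPM (siCtrl) and 84.1 TPM (si*Vgll3*), most of it *Smtn* (95.1 and 71.5 TPM, M −0.41, not called). Of these 3, *Des* and *Notch3* were called lower (all genes: 11.4%), at M of −1.21 and −0.82. The defining marker *Myh11* was at 0.482 and 0.180 TPM (M −1.43, with A below 0), and *Kcnj8* had 0 and 24 reads. Contractile genes went both ways. *Cnn1* was at M of 1.13, *Tagln* at 0.52, *Actg2* at 0.33 and *Acta2* at 0.23, while *Smtn* and *Myh11*, given above, lay below 0. *Cnn1* and *Actg2* are in no marker list used here, and they and the single markers named were chosen after their values were seen.

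Mesothelial markers summed to 56.1 and 41.3 TPM, with 3 of 5 called lower and 2 higher (all genes: 11.4% and 5.73%). Of 8 cardiomyocyte markers 6 had 0 reads in both libraries, *Myh6*, *Myh7* and *Ttn* among them, and *Tnnt2* had 60.0 and 10.4 TPM. Endothelial markers summed to 27.2 and 22.8 TPM, and the median M of the 4 with A > 0 was 0.22. *Tek*, called lower, made up most of both sums (19.5 and 13.4 TPM, M −0.54). The others with A > 0, *Cdh5*, *Pecam1* and *Emcn*, were at M of 0.50, 0.47 and −0.02 and were not called. Leukocyte markers summed to 15.7 and 14.4 TPM. Of the 5 with A > 0, 1 was called lower and 3 higher (all genes: 11.4% and 5.73%), with a median M of 0.50. *Lyz2* was the lower one (10.9 and 3.13 TPM), and *Cd53* was highest, with 136 and 979 reads and an M of 2.96. *Ptprc*, the CD45 gene, had 0 reads in both libraries. The part of these cells in the values of *Eln* and *Mfap4* was not tested.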

How the data were processed

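RNA-seq data of 2 libraries, 1 per condition, were analysed. Per the labels and the methods of the study, stranded mRNA libraries (TruSeq) were sequenced on the NovaSeq platform, and reads were trimmed with Trimmomatic, mapped to mm10 with HISAT2 and assembled with StringTie. Tool versions and annotation release were not given in the sources used here. The authors deposited raw counts per gene and TPM per gene in separate tables, for 24532 and 14158 genes. M and A were computed from TPM without a pseudocount, and counting intervals from the read counts (scipy 1.17.1). No replicate model could be fitted, so edgeR 4.0.16 (TMM) and DESeq2 1.42.0 (size factors) were used only to rescale counts as alternatives. Others were CPM, 0.1 or 1 TPM added, other limits on A or M, and centred M.

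The members and lists were chosen with earlier results of these data known. Named from each wider list were the 3 genes highest in mean TPM and those with the lowest and highest M at A > 0. Transcripts were those of the longest coding sequence in GENCODE vM21, with the stop codon counted as coding. The precision is that of counting: the lowest count of a member was 1264 reads (*Eln*, si*Vgll3*), and the widest interval reached 0.0848 to either side of M.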

Additional observations from a re-analysis of the deposited data

How the results depend on the processing

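The direction of M was the same for all 10 genes under each of the 6 alternatives that recompute M (CPM, TMM, DESeq2 size factors, 0.1 or 1 TPM added, centred M). *Eln* ran from −2.94 to −2.76, *Mfap4* from −2.74 to −2.69, *Fbn2* from −1.51 to −1.28 and *Efemp1* from 0.73 to 0.79. *Fbn1* was the exception on the threshold: its M of −0.51 became −0.46 with CPM and it was not called lower under 4 of the 6 (CPM, TMM, DESeq2 size factors, centred M), so that 4 genes in place of 5 were called lower there. The shift is that of all genes, whose median M was −0.05 with TPM and 0.01 with CPM. A threshold of 1 on M left 3 genes lower and 0 higher, as fewer genes can pass it. Among the wider lists, the lysyl oxidases called lower went from 2 to 1 under the same 4 scalings. The receptors called lower went from 2 to 1 under those scalings and with 0.1 or 1 TPM added. They also did so with A above 2 and when the whole counting interval had to pass. Of the microfibril-associated genes, 7 in place of 8 were called lower under the same 4 scalings, with A above 2, and when the whole interval had to pass. Their 1 higher call was lost with 1 TPM added and with A above 2. With centred M, 5 in place of 6 fibrillar collagens were called lower. The median M of the 10 genes stayed between −0.39 and −0.34. No paired analysis was possible because siCtrl and si*Vgll3* were sequenced once each, and for the same reason no library could be left out. Depth limits none of the members, but biological error was not measured.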
